A study of Mus musculus with 8 samples.

Results

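The data concern 9 genes that mature β-cells normally keep low and that are known as disallowed genes: Ldha, Slc16a1, Hk1, Acot7, Pdgfra, Mgst1, Cxcl12, Igfbp4 and Oat. They were taken by name, with earlier results of these data known, and were read through every array probe whose RefSeq transcript accession maps to 1 of these symbols. This gave 15 probes for the 9 genes, of 32994 named probes for 22911 genes. Each gene is described by its probe with the highest mean signal, and its other probe, where it has one, is given beside it.

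Islets came from control mice, which carry floxed Fbln5 alleles, and from βFbln5KO mice, in which the same floxed alleles meet Ins1-Cre, a Cre recombinase under the mouse insulin 1 promoter. Fbln5 encodes fibulin-5, a secreted matrix protein, and it is deleted only in cells that express the Cre, so the other cells of the islet keep it. All mice were 11 weeks old and, per the methods, male littermates, and none of the arrays is from mice with Ins1-Cre alone. Each group has 4 arrays, each from an extraction of 150 islets, and since it is not stated whether an extraction is 1 mouse, p-values measure the spread between these extractions.

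A disallowed gene is expressed in most tissues but held very low in β-cells, where its product would interfere with the coupling of glucose to insulin release or with the quiet state of the mature cell. Lactate dehydrogenase A and the lactate and pyruvate carrier MCT1 (Slc16a1) are the best known pair: with both low, pyruvate from glycolysis goes to the mitochondria, and lactate or pyruvate from muscle during exercise does not trigger insulin release. Hexokinase 1 has a high affinity for glucose and would let β-cells respond at fasting glucose. Other islet cells, such as endothelial, mesenchymal, glial and exocrine cells, do express several of these genes, and in bulk islets fewer cells of a type and less RNA per cell cannot be told apart.

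The promoter windows of the lactate pair are shown because they alone among the 9 genes hold a motif that was searched for, the hypoxia response core. RefSeq windows of 250 bases before an annotated start (GRCm38.p6) were found for all 9 genes, 12 windows in all. Capitals mark ACGTG, the core of the element bound by hypoxia-inducible factors, or its reverse complement CACGT. Where the 2 overlap they form CACGTG, the E-box, and count as 1 place. The Ldha window is chr7:46845554-46845803 and the Slc16a1 window is chr3:104638414-104638663, both on the plus strand and written 5′ to 3′.
Ldha: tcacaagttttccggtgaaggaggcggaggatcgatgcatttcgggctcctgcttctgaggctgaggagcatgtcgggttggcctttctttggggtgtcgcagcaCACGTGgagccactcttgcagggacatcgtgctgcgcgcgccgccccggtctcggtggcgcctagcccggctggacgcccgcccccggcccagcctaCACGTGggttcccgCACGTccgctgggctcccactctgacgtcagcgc
Slc16a1: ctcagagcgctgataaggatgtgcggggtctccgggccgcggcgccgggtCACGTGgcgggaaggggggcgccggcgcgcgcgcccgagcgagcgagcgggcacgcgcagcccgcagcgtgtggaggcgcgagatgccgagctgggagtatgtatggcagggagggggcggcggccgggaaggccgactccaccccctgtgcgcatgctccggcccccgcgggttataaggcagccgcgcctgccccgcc
The Ldha window holds 3 such places, 145, 48 and 34 bases before the start, and the Slc16a1 window holds 1, at 200 bases. None of the other 10 windows holds one, the second Ldha window among them. The motif is present in 16.6% of all 32851 mouse windows of this length. A GC box, GGGCGG or its reverse CCGCCC, occurs in 5 of the 12 windows and in 32.7% of all windows. The windows of Ldha and Slc16a1 consist of 67.2% and 76.4% G and C. A match describes the letters and not a bound site.

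All signals are log2 values relative to the array's own 75th percentile, so that 0 is that percentile and a difference of 1 is 2-fold. A signal is called detected where the scanner software marked the spot as well above background. The lowest detected signal of an array was −5.01 to −4.79 in control and −4.70 to −4.19 in βFbln5KO, so the limit of detection was higher in the knockout group. Within that group it was −4.35 to −4.19 on replicates 1 to 3, with 52.6% to 53.6% of spots detected. On the array labelled βFbln5KO replicate 4 it was −4.70, with 56.6% detected, against 56.6% to 58.8% in control. All 8 arrays lie on 1 slide read in 1 scan, with each genotype in its own row of the slide, so that position and genotype cannot be told apart. Fbln5 itself read −1.70, −1.32, −2.05 and −1.83 on control replicates 1 to 4. On the βFbln5KO arrays it read −2.74, −2.40 and −2.38 for replicates 1 to 3 and −1.37 for the array labelled βFbln5KO replicate 4, which lies within the control range. Its Fbln5 level goes against its label. Whether the genotype label of this array is right was not tested, and every difference over all 8 arrays rests on it. The same array stands apart in another respect: 11 of 12 hepatocyte markers were detected on it, against 0 to 2 on any other array. Their summed level was 41.0 times the 75th percentile there and 0.151 to 0.299 on the other 7 arrays, with albumin (Alb) at 3.25 against at most −3.57. All 8 β-cell markers were detected on every array, with summed levels of 1204 to 1465 in control and 1173 to 1223 in βFbln5KO. Values without the array labelled βFbln5KO replicate 4 are therefore given beside those with it.

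**Figure D1:**
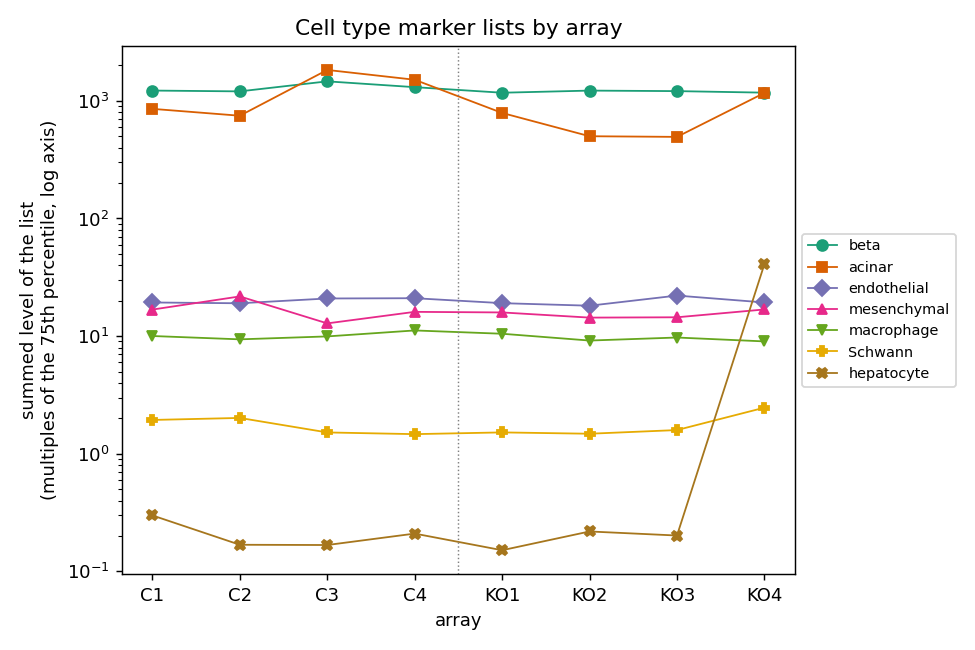
Summed linear level of 7 cell type marker lists on each array (y axis, log scale, in multiples of the array's 75th percentile). C1 to C4 are control replicates 1 to 4, and KO1 to KO4 the arrays labelled βFbln5KO. The hepatocyte list reaches 41.0 on KO4, while the β-cell list stays between 1173 and 1465.

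None of the 9 disallowed genes differed between control and βFbln5KO islets beyond the spread between arrays. In limma, 0 of 9 passed an adjusted p of 0.05, where 0.0131% of all named genes did, and 0 of 9 reached an unadjusted p of 0.05, where 16.8% of all named genes did so higher and 2.68% lower. Among genes detected on all 8 arrays these shares were 1.01% higher and 3.08% lower. The fitted differences of the 9 genes, βFbln5KO minus control, ran from −0.27 for Igfbp4 to 0.42 for Mgst1 with a median of −0.080, against 0.024 over all named genes. They were above 0 for 4 genes and below 0 for 5. The Igfbp4 difference rests in part on undetected signals. The smallest adjusted p was 0.687. The intervals are wide, so that these arrays could not have resolved modest changes in most of the genes: the 95% interval of the difference spans −0.33 to 0.49 for Oat, the narrowest, and −1.80 to 2.63 for Mgst1, the widest.

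**Figure D2:**
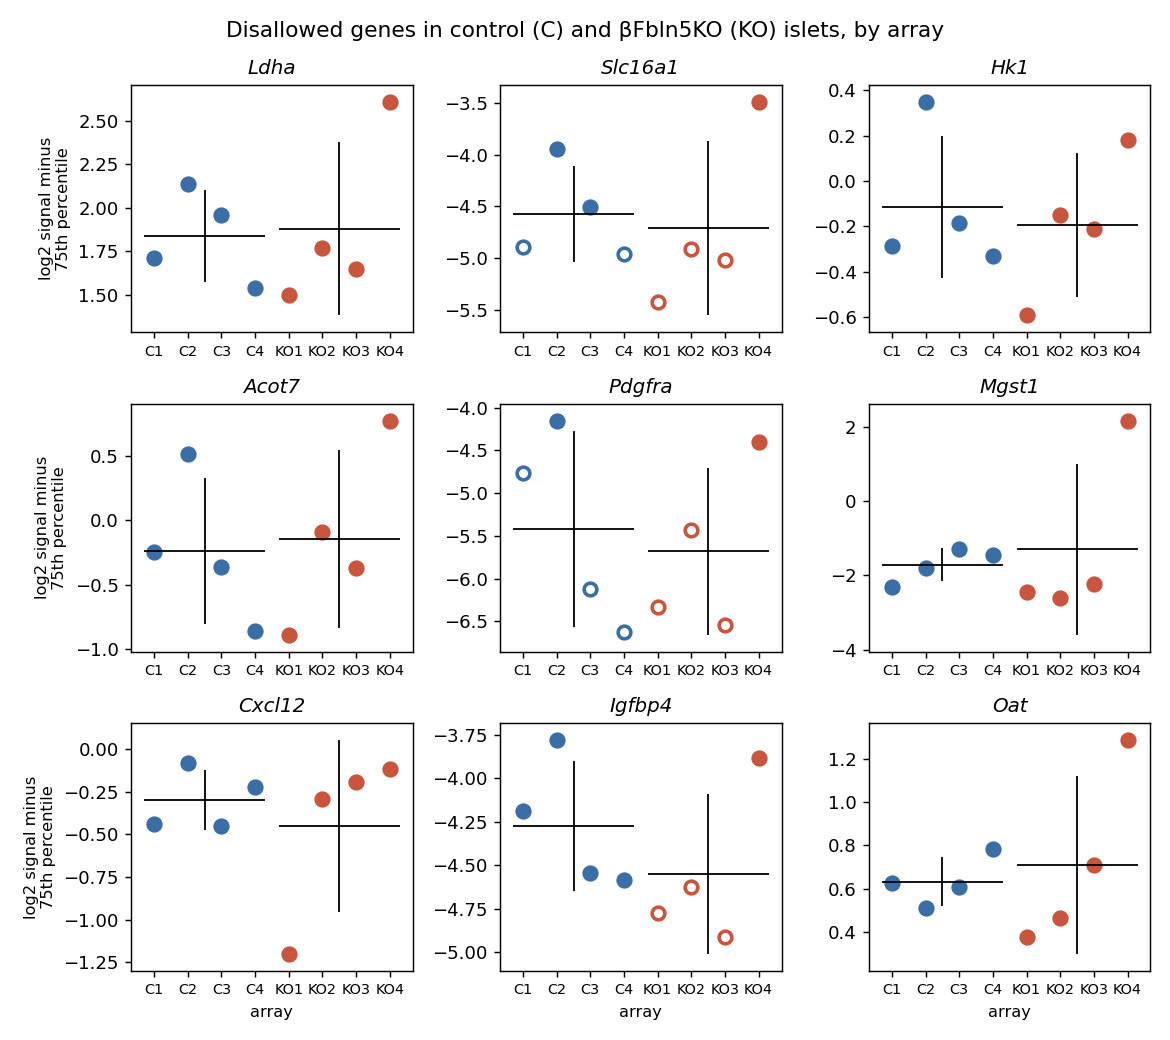
Log2 signal minus the array's 75th percentile (y axis, separate range in each panel) of the 9 genes on the 8 arrays. Filled points are well above background and open points are not, horizontal lines are group means and vertical lines 1 SD (n = 4). KO4 is the highest of the 4 KO arrays for all 6 genes with every point filled.

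Ldha, which makes lactate from pyruvate, was detected on all 8 arrays. Its signals on control replicates 1 to 4 were 1.71, 2.14, 1.96 and 1.54, and on βFbln5KO replicates 1 to 4 they were 1.50, 1.77, 1.65 and 2.61. The array labelled βFbln5KO replicate 4 was above all the others, and replicate 1 was the lowest of all. The difference was 0.04 (SE 0.24, limma adjusted p = 0.946). The other Ldha probe was detected on 4 control arrays but only on the array labelled βFbln5KO replicate 4 in the other group, at −4.23 to −4.08 in control and −5.44 to −3.80 in βFbln5KO, for a difference of −0.46 (adjusted p = 0.493 in limma). Without that array this probe was not detected in βFbln5KO. Against the lowest detected signals of the remaining βFbln5KO arrays it was 1.08-fold lower, an approximate bound. The difference did not pass (unadjusted p = 0.0389, adjusted p = 0.155 in limma).

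Slc16a1 lay at the limit of detection. It read −4.89, −3.95, −4.51 and −4.96 in control, where replicates 2 and 3 were detected, and −5.42, −4.91, −5.02 and −3.49 in βFbln5KO, where only the array labelled replicate 4 was. The difference was −0.14 (SE 0.45, limma adjusted p = 0.908). Low MCT1 signal was thus read in both genotypes, and 5 of 8 arrays held values that are bounds rather than levels. The partner genes of lactate handling were measured more firmly. Ldhb, the other lactate dehydrogenase subunit, differed by 0.08 (SE 0.13), and the carrier MCT4 (Slc16a3) by −0.01 (SE 0.13). Basigin (Bsg), the chaperone that brings these carriers to the membrane, differed by 0.08 (SE 0.05). Of 16 genes of lactate and pyruvate metabolism, which include the mitochondrial pyruvate carrier and pyruvate dehydrogenase, 0 passed an adjusted or an unadjusted p of 0.05, and their median difference was 0.02. On the 7 arrays other than the one labelled βFbln5KO replicate 4, 1 of them, the kinase gene Pdk3, named after its values were seen, had a difference of 0.39 at an unadjusted p of 0.0124, which did not pass (limma adjusted p = 0.0598).

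Hk1 was detected on all arrays. It read −0.29, 0.35, −0.19 and −0.33 in control and −0.59, −0.15, −0.21 and 0.18 in βFbln5KO. Control replicate 2 and the array labelled βFbln5KO replicate 4 were the highest, and the groups overlapped. The difference was −0.08 (SE 0.19, limma adjusted p = 0.865). The other Hk1 probe was detected on 3 control arrays and on the array labelled βFbln5KO replicate 4 only, with a difference of −0.55 (adjusted p = 0.486 in limma). Without that array the limma fit of this probe passed narrowly (adjusted p = 0.0489, and 0.0443 without control replicate 2 too), but no fold is given, since its control mean of −4.40 lay below the limit of −4.26 on the remaining βFbln5KO arrays. Hk2 was detected on 3 arrays, and its difference of −0.66 (SE 0.66) did not pass. Hkdc1, a further hexokinase, was detected on 2 control arrays and no βFbln5KO array and did not pass. Of 10 genes of glucose phosphorylation and entry, 0 were called in either direction on all 8 arrays. Without the array labelled βFbln5KO replicate 4 an unadjusted p of 0.05 was reached by 2, Hk2 and Hkdc1, both with lower readings. Neither passed after adjustment, though Hkdc1 did with control replicate 2 left out as well (adjusted p = 0.0477 in limma). Neither was detected on the other 3 βFbln5KO arrays, and no fold is given.

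Acot7, a thioesterase that frees fatty acids from their coenzyme A esters, is best known from neurons. It read −0.25, 0.52, −0.36 and −0.86 in control and −0.89, −0.09, −0.37 and 0.77 in βFbln5KO. In each group 1 array stood above the rest, control replicate 2 and the array labelled βFbln5KO replicate 4. The difference was 0.09 (SE 0.37, limma adjusted p = 0.925). The other Acot7 probe, also detected everywhere, gave a difference of 0.09 (SE 0.34) and the same array order at the top. Acot13, the mitochondrial thioesterase, differed by −0.02 (SE 0.07). Among 11 acyl-CoA thioesterases an unadjusted p of 0.05 was reached by 0 higher and 1 lower one. That gene was Them4, a mitochondrial thioesterase, at −1.92 to −1.67 in control and −2.32 to −2.02 in βFbln5KO. Its difference of −0.35 (SE 0.10) had an unadjusted p of 0.00861 and an adjusted p of 0.0731 in limma. With the array labelled βFbln5KO replicate 4 left out, Acot1, at −0.45 (limma adjusted p = 0.0665), and Acot12, not detected on any of the 7 arrays, also read lower at an unadjusted p of 0.05. With control replicate 2 left out too, the adjusted p of Acot12 was 0.0345 in limma.

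Of the genes of signalling between cells, Cxcl12 encodes a chemokine made by stromal and endothelial cells. It read −0.44, −0.08, −0.45 and −0.22 in control and −1.20, −0.30, −0.19 and −0.12 in βFbln5KO. Replicate 1 of βFbln5KO was clearly below the other 7 arrays, and those 7 overlapped. The difference was −0.15 (SE 0.23, limma adjusted p = 0.770). The other Cxcl12 probe was detected on 4 control arrays and 1 βFbln5KO array, with a difference of −0.02 (SE 0.42). Of the Cxcl12 receptors, Cxcr4 differed by −0.32 (SE 0.21) and the scavenging receptor Ackr3 by −0.18 (SE 0.17), and neither passed.

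Pdgfra, the PDGF receptor that marks fibroblast-like cells, was mostly below detection. It read −4.77, −4.16, −6.12 and −6.63 in control and −6.34, −5.43, −6.54 and −4.41 in βFbln5KO. Only control replicate 2 and the array labelled βFbln5KO replicate 4 were detected. The difference was −0.26 (SE 0.65, limma adjusted p = 0.875). Pdgfrb, the receptor of pericytes, was detected on all arrays, at −0.11 to 0.04 in control and −0.10 to −0.004 in βFbln5KO, with a difference of −0.02 (SE 0.06). Of 6 genes of the PDGF system besides Pdgfra, 0 were called on all 8 arrays. Without the array labelled βFbln5KO replicate 4, Pdgfc, a PDGF ligand named after its values were seen, was detected on all 4 control arrays and none of the other 3. Against the lowest detected signals of those 3 arrays, Pdgfc was 1.44-fold lower there, which is an approximate bound (limma adjusted p = 0.0148).

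Igfbp4, a secreted binding protein that holds insulin-like growth factors, read −4.19, −3.78, −4.55 and −4.58 in control and −4.78, −4.63, −4.91 and −3.88 in βFbln5KO. All 4 control arrays were detected, but of the βFbln5KO arrays only the one labelled replicate 4 was. The higher limit of detection on those arrays, up to −4.19, moves with this count. The difference was −0.27 (SE 0.31, limma adjusted p = 0.687), and the other probe was dim on all 8 arrays. Igfbp5 differed by −0.01 (SE 0.20), Igfbp7 by 0.01 (SE 0.06) and the receptor Igf1r by −0.08 (SE 0.10). Of 12 other genes of IGF binding and signalling, an unadjusted p of 0.05 was reached by 0 higher and 1 lower one. It was Pappa2, a protease that cleaves IGF-binding proteins, whose difference of −0.40 (SE 0.17) had an adjusted p of 0.175 in limma. Over the 7 arrays that leave out the one labelled βFbln5KO replicate 4, the counts were 1 and 1, and Pappa2 was not among them (unadjusted p = 0.116 in limma). The lower gene was then Igf1, at −1.92 (limma adjusted p = 0.164), and the higher one Igfbp1, which was not detected on any of the 7; both were named after their values were seen.

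Oat, which converts ornithine to a precursor of glutamate and proline, read 0.63, 0.51, 0.61 and 0.78 in control and 0.38, 0.46, 0.71 and 1.29 in βFbln5KO. The array labelled βFbln5KO replicate 4 was the highest of all, and replicates 1 and 2 were the lowest. The difference was 0.08 (SE 0.18, limma adjusted p = 0.862). Around it, the polyamine enzyme Odc1 differed by 0.01 (SE 0.07), and the proline synthesis gene Aldh18a1 by 0.03 (SE 0.08). Of 12 measured genes of ornithine and proline metabolism, an unadjusted p of 0.05 was reached by 2 higher and 0 lower ones, and over those 7 arrays by 1 and 1, without Otc. Of the former, Otc was detected on 2 βFbln5KO arrays only, and the other, Arg2, on no array. Over the 9 gene lists of partners and other disallowed genes, 87 genes in all, that threshold was reached by 2 higher and 2 lower ones, and 0 passed the adjusted one.

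**Figure D3:**
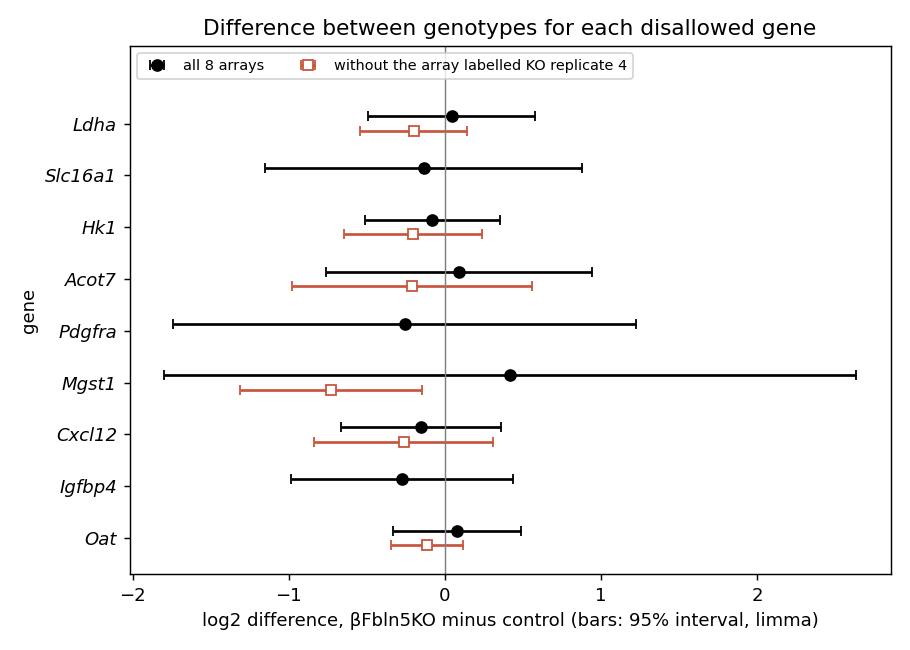
Difference in log2 signal, βFbln5KO minus control (x axis), of each gene with its 95% interval from limma, on all 8 arrays (black) and without the array labelled βFbln5KO replicate 4 (red). Every black interval spans 0. Red points are drawn for the 6 genes detected on all 8 arrays, and of these only that of Mgst1, at −0.73, has an interval below 0.

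Mgst1, a microsomal glutathione transferase that detoxifies lipid peroxides and is abundant in liver, gave the widest spread. It read −2.30, −1.79, −1.29 and −1.44 in control and −2.46, −2.62, −2.24 and 2.16 in βFbln5KO. The array labelled βFbln5KO replicate 4 was 24.2-fold above the mean of the other 3 βFbln5KO arrays, while these 3 lay close to or below the lowest control array. Over all 8 arrays the difference was 0.42 (SE 0.98, limma adjusted p = 0.863). Without that array it was −0.73 (SE 0.25), with an unadjusted p of 0.0206 and an adjusted p of 0.0920. The direction of the Mgst1 difference thus turned with 1 array.

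The other Mgst1 probe, also detected on all 8 arrays, read −1.76, −1.57, −2.54 and −2.11 in control and −3.17, −3.44, −3.03 and 1.36 in βFbln5KO. Replicates 1 to 3 of βFbln5KO lay below every control array. With all arrays the difference was −0.07 (SE 0.97), and without the array labelled βFbln5KO replicate 4 it was −1.22 (SE 0.25, limma adjusted p = 0.00976). With control replicate 2 left out as well it was −1.07 (SE 0.25, adjusted p = 0.0218). The 2 probes thus have the same direction without that array but fall on different sides of the threshold. For scale, 0.667% of genes detected on all 8 arrays passed an adjusted p of 0.05 without that array, and in 3.44% of them the other 3 βFbln5KO arrays all lay below the 4 control arrays, which by brightest probe held for 0 of the 6 disallowed genes detected on all arrays.

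Values that move with Mgst1 stand beside it. The summed level of 8 acinar markers, which come from exocrine cells carried along with islets, was 855, 747, 1832 and 1512 times the 75th percentile on control replicates 1 to 4 and 789, 500, 494 and 1169 on the βFbln5KO arrays. Without the array labelled βFbln5KO replicate 4, 5 of the 8 acinar markers were lower at an unadjusted p of 0.05, where 2.70% of genes detected on all arrays were, with a median difference of −1.24. Control replicates 3 and 4 were the highest controls both for these markers and for the brighter Mgst1 probe, but the lowest for the other Mgst1 probe. The probes lie in spot rows 365 and 381 of 384. Probes detected on all arrays within 8 rows of them had median differences of −0.05 and −0.07 without that array. Their part in the result was not tested. Mgst3, the related enzyme of the same family, differed by −0.05 (SE 0.08), and of 5 other members of the family 0 were called.

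All 6 disallowed genes detected on every array had their highest signal among the βFbln5KO arrays on the one labelled βFbln5KO replicate 4, where 29.3% of all genes detected on every array had theirs. They were above the mean of the other 3 by 1.36-fold for Cxcl12, 1.41-fold for Hk1, 1.70-fold for Oat, 1.96-fold for Ldha, 2.33-fold for Acot7 and 24.2-fold for Mgst1. Slc16a1, Pdgfra and Igfbp4 were detected on none of the other 3 arrays, so their readings there are bounds and no fold is given. The reading of Pdgfra on the array labelled βFbln5KO replicate 4, −4.41, lay below the limits of detection of the other 3, so its order among them is not known. By brightest probe, replicate 2 was the highest control array for 4 of these 6 genes, the exceptions being Mgst1 and Oat, against 20.9% of detected genes. Over all 8 arrays the highest value fell on the array labelled βFbln5KO replicate 4 for 4 of the 6 and on control replicate 2 for the other 2, where 22.2% of detected genes peaked on either. The second probes differ in part: those of Hk1, Cxcl12 and Igfbp4 read highest on the array labelled βFbln5KO replicate 4 and not on control replicate 2. Control replicate 2 was the lowest control for the second Hk1 probe, at −4.76, and control replicate 1 the highest for the second probes of Ldha and Cxcl12, at −4.08 and −3.86. The 9 genes are few and were chosen by name, and these shares are descriptions with no test.

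Some markers of other cells were also highest on these arrays. All 4 Schwann cell markers were highest on the array labelled βFbln5KO replicate 4, where their summed level was 2.46. It was 2.02 on control replicate 2, close to the 1.94 on control replicate 1, and 1.47 to 1.59 on the rest. S100b, the only one of the 4 given singly here, read −1.19 on the array labelled βFbln5KO replicate 4 and −1.67 on control replicate 2. On the other 6 arrays it read −3.24 to −2.07. The summed mesenchymal markers were highest on control replicate 2, at 21.8 against 12.8 to 16.9 elsewhere, with 5 of 8 markers highest there. The hepatocyte list was high on the array labelled βFbln5KO replicate 4 only and not on control replicate 2, at 0.168. The summed endothelial markers were 19.0 to 21.0 in control and 18.1 to 22.1 in βFbln5KO, and the macrophage markers 9.39 to 11.2 and 9.02 to 10.5, with no marker of either list highest on these arrays. Both PP cell markers, Ppy and Pyy, were highest on the array labelled βFbln5KO replicate 4, with a summed level of 439 against 309 to 408 on the other 7. The part of these cells in the signals of the disallowed genes was not tested.

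**Figure D4:**
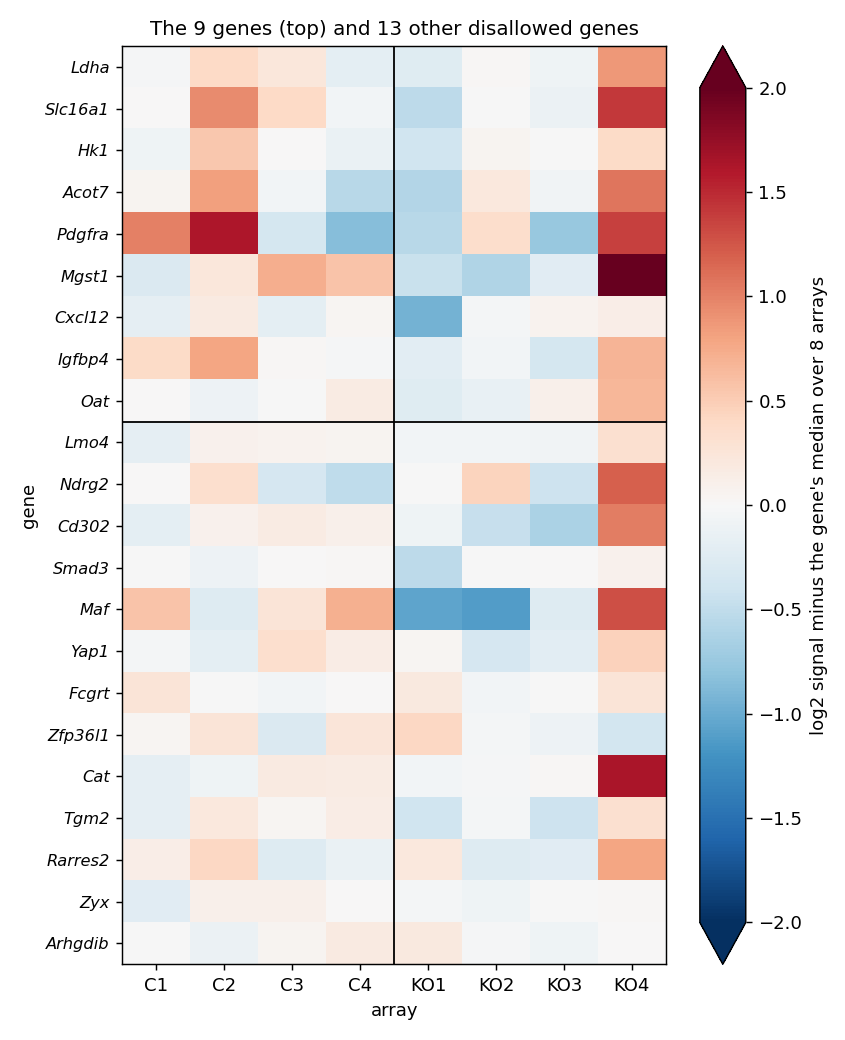
Log2 signal minus each gene's median over the 8 arrays, as a colour from blue (lower) to red (higher), for the 9 genes above the line and 13 other disallowed genes below it, with arrays C1 to C4 and KO1 to KO4 as columns. KO4 holds the highest reading for 5 of 9 and 10 of 13 genes, dim readings included. Colours stop at 2, and Mgst1 lies beyond that on KO4.

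Without the array labelled βFbln5KO replicate 4, the fitted differences of the 6 genes detected on all arrays were all below 0, from −0.73 for Mgst1 to −0.11 for Oat with a median of −0.21. Of all genes detected on every array 56.6% were below 0, with a median of −0.01. By brightest probe, 1 of the 6 genes, Mgst1, reached an unadjusted p of 0.05, and 0 passed the adjusted one. At the unadjusted threshold 2.70% of detected genes were lower and 1.13% higher. The second probes of Mgst1 and Hk1 did pass in limma (adjusted p = 0.00976 and 0.0489), that of Hk1 on undetected βFbln5KO signals. Of the 87 partner and other disallowed genes, 3 were then higher and 11 lower at an unadjusted p of 0.05, where 19.1% of all named genes were higher and 2.74% lower. An adjusted p of 0.05 was passed by 3 of the 87, against 16.4% of all named genes but 0.667% of genes detected on all 8 arrays. The 3 were Pdgfc and 2 genes, Igfbp1 among them, that were not detected on any of the 7 arrays. Ldha then differed by −0.20 (SE 0.15), Hk1 by −0.20 (SE 0.19), Acot7 by −0.21 (SE 0.33), Cxcl12 by −0.26 (SE 0.24) and Oat by −0.11 (SE 0.10). With control replicate 2 left out too, Ldha was at −0.10, Hk1 at −0.05 and Acot7 at 0.04. Slc16a1, Pdgfra and Igfbp4 were not detected on any of the other 3 βFbln5KO arrays. Their control means of −4.58, −5.42 and −4.28 were below the mean detection limit of −4.26 on those arrays, so no fold is given for them.

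Of a further 13 genes that are known as disallowed in β-cells, 10 were highest on the array labelled βFbln5KO replicate 4, where 13.8% of detected genes were. None of the 13 was called between the genotypes on all 8 arrays. Catalase (Cat), the peroxide-degrading enzyme, read −2.03 to −1.67 on the other 7 arrays and −0.22 on that one. Ndrg2 read −1.91 to −0.95 on the others and −0.21 there. Control replicate 2 was the highest array for 0 of the 13 and for 4 of the 9 genes, a difference that was not tested. The 3 not highest on the array labelled βFbln5KO replicate 4 were Zfp36l1, Zyx and Arhgdib, of which Zfp36l1, a regulator of mRNA decay, was lowest there, at 2.76 against 2.83 to 3.53. Without that array Cd302 was at −0.43 and Tgm2 at −0.34, each at an unadjusted p under 0.05 and neither at an adjusted one. Maf reached an unadjusted p under 0.05 as well (adjusted p = 0.0546 in limma, and 0.0277 without control replicate 2 too), but it was detected on none of the other 3 βFbln5KO arrays and its control mean of −5.14 lay below their limit of −4.26, so no fold is given. Cat, Ndrg2, Zfp36l1, Cd302, Tgm2 and Maf were named after their values were seen.

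The genes whose signal followed each disallowed gene most closely over the 8 arrays, among 13546 genes detected on all of them, differ from gene to gene. For Ldha they were Ctxn1, which encodes cortexin 1, and Uchl1, a ubiquitin hydrolase of neurons and endocrine cells (Pearson r = 0.979 and 0.978). For Acot7 they were Scube1 and Slc18a3, the vesicular acetylcholine transporter of cholinergic nerve endings (r = 0.992 and 0.990). Slc18a3 read −2.16, −1.04, −2.17 and −3.28 in control and −3.27, −1.77, −2.42 and −0.75 in βFbln5KO, with the same 2 arrays on top as Acot7. For Mgst1 they were Gsta3, a cytosolic glutathione transferase, and Azgp1, a secreted glycoprotein (r = 0.995 and 0.993). Gsta3 read −3.42 to −1.83 on the other 7 arrays and 1.62 on the array labelled βFbln5KO replicate 4. For Hk1 they were Akap10 and Adcy7 (r = 0.974 and 0.969), for Cxcl12 Duxbl2 and Zfp395 (r = 0.985 and 0.974), both lowest on βFbln5KO replicate 1, and for Oat Accs and 2610507I01Rik (r = 0.956 and 0.952). Without the array labelled βFbln5KO replicate 4, over 7 arrays, r was 0.990 and 0.989 for the genes of Acot7 and 0.985 for Uchl1, but 0.791 and 0.789 for those of Oat. These correlations were chosen as the highest of many and are descriptions with no test.

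**Figure D5:**
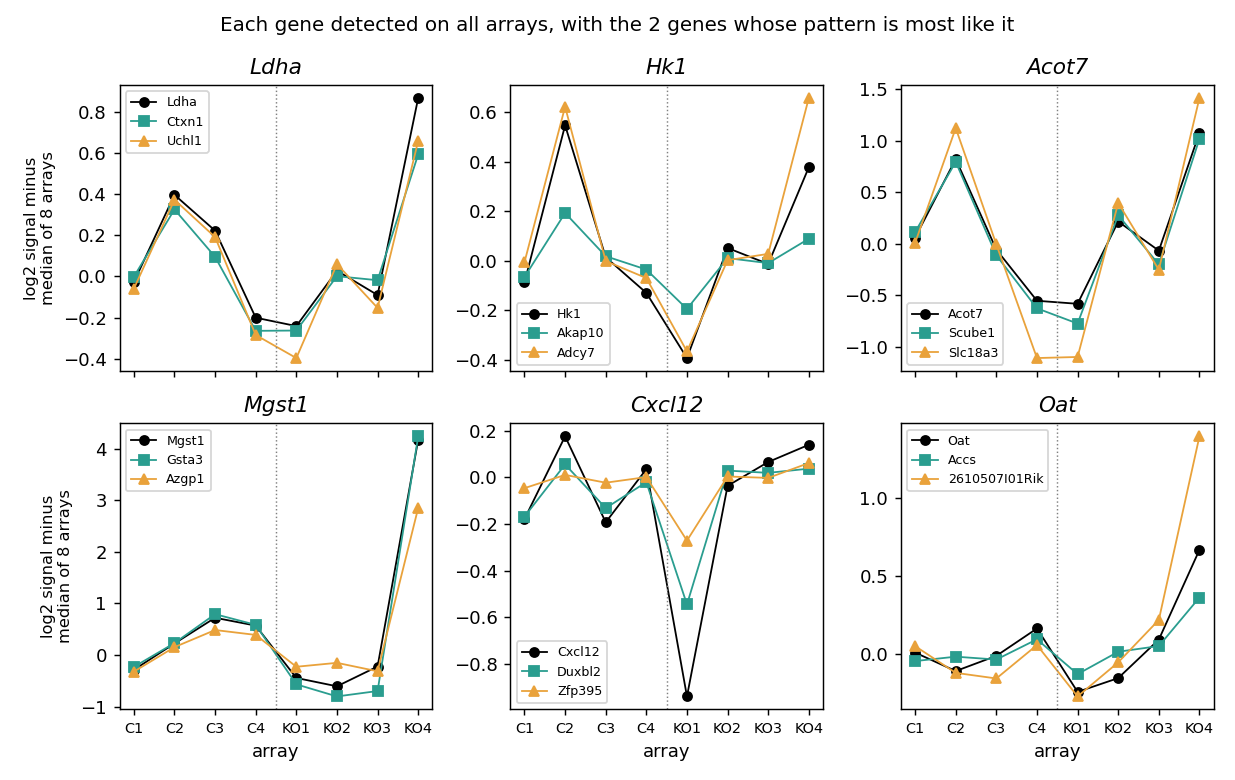
Log2 signal minus the gene's median over the 8 arrays (y axis, separate range in each panel) for the 6 genes detected on all arrays (black circles) and the 2 genes whose pattern is most like each (coloured), by array. Acot7 and Slc18a3 peak on C2 and KO4, Mgst1 and Gsta3 on KO4, and Cxcl12 is lowest on KO1.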

How the data were processed

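Islet RNA of 4 control and 4 βFbln5KO extractions was labelled with Cy3 and hybridised to 1 slide of 8 Agilent mouse arrays. The authors deposited each array's scanner output from Feature Extraction 11.0.1.1, named in the submitters' processing notes: processed signal intensity after background subtraction and spatial detrending, without normalization between arrays. A second table that the authors deposited holds 35553 probes, and in it the intensity is divided by 1 number per array (column medians 0.388 to 0.417). It served as an alternative. Its scale is linear, genes are not centred, and its direction is that of the signal.

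Processed signals of 59305 spots were log2-transformed, and the 75th percentile of the array was subtracted. It was 709 to 1012 on control and 910 to 1055 on βFbln5KO arrays. Spots marked as outliers were left out (1689 of 474440 values, 0 of them on the 15 probes of the 9 genes; among the list genes Ltc4s lost its value on control replicate 4 and Cps1 on βFbln5KO replicate 3, and the latter still counts as detected), and spots of a probe were averaged to 56605 probes. RefSeq accessions gave 32994 probes the symbol of 1 gene. Groups were compared on all probes with limma 3.58.1 (lmFit, eBayes with trend) in R 4.3.3, with Benjamini-Hochberg adjustment and a threshold of 0.05. A gene was read by its brightest probe. Where 1 group had no detected array, the bound was taken against each array's lowest detected signal. An undetected spot can read above that signal, as Pdgfra did on control replicate 1 (−4.77 against −4.88). Such bounds are therefore approximate. The number of arrays limits the precision. The script was tested on simulated data. Python 3.11.15 with matplotlib 3.10.9 drew the figures.

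The genes, the partner and marker lists and the alternatives were chosen with earlier results of these data known. The hepatocyte list, and the setting without control replicate 2 and the array labelled βFbln5KO replicate 4, were added after the values were seen. Named were all 9 genes, partner genes (some of which are not reported here), other partner-list genes detected on all 8 arrays with an unadjusted p under 0.05, the 2 genes most correlated with each of the 9 that was detected on all arrays, and Fbln5. The partner lists hold 87 measured genes in 9 lists, and the marker lists cover 12 cell types. Of the ornithine and proline list, 12 of 13 genes were measured. The other marker lists had these median differences: alpha −0.27 with 1 of 6 lower at an unadjusted p of 0.05, delta −0.10, PP −0.05, ductal −0.09, lymphocyte −0.10 with 1 of 4 lower, endothelial −0.01, macrophage −0.05, mesenchymal −0.07, Schwann 0.05, β-cell −0.10, acinar −0.89 with 1 of 8 lower, and hepatocyte 1.84 with 1 of 12 higher. Sequences are from RefSeq (GRCm38.p6).

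Each array was left out in turn. Further alternatives were quantile normalization, normexp on the spots' median signal (offset 50), only probes detected on 4 or more arrays, dim signals raised to 1 floor, no trend in eBayes, no removal of outlier spots, averaging over the probes of each gene, a block for the replicate number, the deposited table and the methods' t-test. Other experiments of the study were not analysed here.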

Additional observations from a re-analysis of the deposited data

Results flagged for a closer look

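Of 64 groups of 4 arrays examined for the disallowed genes and their partners, 6 had 1 array whose gap to the nearest other, as a share of the group's range, was unusually large. Chance flags about 1 in 20 such groups. In the βFbln5KO group, the array labelled replicate 4 was far above the rest for both Mgst1 probes (gap shares 0.920 and 0.914), at 2.16 against −2.24 for the next array and at 1.36 against −3.03. It was also far above the rest for the dim Igfbp4 probe (0.836), at −5.14 against −6.40, and for Hkdc1 (0.882), at −4.51 against −6.09. None of the 4 βFbln5KO arrays was detected for these dim signals, which are therefore bounds. Replicate 1 of βFbln5KO was far below the rest for Cxcl12 (0.837), at −1.20 against −0.30. Control replicate 2 was the lowest control for Aldh18a1 (0.906), at 2.03 against 2.23.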

How the results depend on the processing

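The 9 differences were recomputed under 11 alternatives and with each of the 8 arrays left out. An adjusted p of 0.05 was passed by 0 of 9 genes in each of these fits, by brightest probe (lowest 0.138 over the alternatives and 0.0920 with 1 array left out). Directions were less stable, all of them in differences that did not pass. With the floor on dim signals Slc16a1 turned to 0.11, and with the mean of a gene's probes Ldha turned to −0.21. Sizes moved as well. The floor put Pdgfra at −0.007 and Igfbp4 at −0.026, and normexp put Slc16a1 at −0.014 and Igfbp4 at −0.087. Averaged probes put Hk1 at −0.31 and Mgst1 at 0.17. Leaving out 1 array in turn moved Ldha between −0.20 and 0.17, Slc16a1 between −0.54 and 0.10, Hk1 between −0.20 and 0.074, Acot7 between −0.21 and 0.34, Pdgfra between −0.68 and 0.16, Mgst1 between −0.73 and 0.86, Cxcl12 between −0.26 and 0.10 and Oat between −0.11 and 0.19. The fitted value of Igfbp4 moved between −0.50 and −0.11. The lowest values all came without the array labelled βFbln5KO replicate 4. For Slc16a1, Pdgfra and Igfbp4 those lowest values rest on undetected signals of the remaining βFbln5KO arrays. They give neither a size nor a direction. With control replicate 2 left out as well, Ldha was at −0.10, Mgst1 at −0.76 and Oat at −0.15. The cause was not tested. Genes lower at an unadjusted p of 0.05 numbered 0, and 0 to 1 with 1 array left out, the 1 being Mgst1 without the array labelled βFbln5KO replicate 4. It was 1 with control replicate 2 left out too. Of the 87 partner and other disallowed genes, 2 were higher and 2 lower. The higher count was 1 with normexp, quantile normalization, averaged probes, the deposited table and the methods' t-test, and 0 with the filter and the floor on dim signals. The lower count was 1 with quantile normalization and the floor, and 3 with normexp, the filter and averaged probes. With 1 array left out the higher count ranged from 1 to 3 and the lower from 1 to 11, the 11 without the array labelled βFbln5KO replicate 4, and it was 9 without control replicate 2 as well. The filter kept 7 of the 9 genes, and the deposited table holds 6. The deviations of same-numbered arrays had correlations of 0.20, 0.35, −0.26 and −0.05. These were not set against arrays of unlike number, so whether the numbers pair the samples is not known. With the replicate number as a block, 0 of 9 genes were called, and Mgst1 was at 0.42 (SE 0.76). Signal over background limits Slc16a1, Pdgfra and Igfbp4, whose differences rest in part on undetected signals.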

Other observations

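Among the partner genes, Igf1, which encodes insulin-like growth factor 1, was detected on all 8 arrays and spread widely. It read −2.07, −2.18, 0.85 and −0.07 in control and −2.10, −3.17, −3.08 and 0.08 in βFbln5KO, where the last value is that of the array labelled replicate 4. The difference was −1.20 (SE 0.88, limma adjusted p = 0.485). Without that array it was −1.92 (unadjusted p = 0.0421 and adjusted p = 0.164 in limma), and without control replicate 2 as well −2.36 (unadjusted p = 0.0176 and adjusted p = 0.0791 in limma). Control replicates 3 and 4 and the array labelled βFbln5KO replicate 4 were the 3 highest, as they were for the summed acinar markers. Igf1 was chosen after its values were seen.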
